A study of Homo sapiens with 24 samples.

Results

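Naive and primed cells of the H1 line were compared through the nontargeting controls of the study, 3 naive and 3 primed libraries of polyadenylated RNA, which are 6 of its 24 libraries. H1 is an established human embryonic stem cell line. Per the labels, the naive and the primed cells alike had the genotype "Nontargeting" and were treated with doxycycline, so neither group is untreated parental H1. The growth protocol names the same medium, StemFlex, for every sample, and no label names a medium for the naive state. The other groups in the study, with 3 libraries each, were a ZNF8 knockdown in naive H1, a CARHSP1 knockdown in primed H1, a ZIC2 knockdown and its control on day 2 of ectoderm differentiation of H1, and naive and primed H9 cells. Genes were kept where their counts passed a filter on low values. This left 15874 of the 60671 genes listed, and every one of them was tested.

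Naive human pluripotent cells are a culture model of the epiblast of the blastocyst, and primed cells model its later form, once the embryo has implanted. Primed cells depend on FGF signalling through the ERK kinases and on activin or Nodal, while media for the naive state usually block ERK signalling. Naive cells are known for the transcription factors KLF17, KLF4, KLF5, TFAP2C and TFCP2L1, for low DNA methylation and for an ability to form trophoblast, and primed cells for ZIC2, SFRP2, THY1 and DUSP6.

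The naive libraries held 12251027, 11853534 and 9679251 counts and the primed libraries 13175677, 7317419 and 10843152. Levels are CPM, the counts scaled to library size, given for libraries 1, 2 and 3 in that order or as the mean ± SD of 3 libraries. A change is log2 of naive over primed ± SE from edgeR's quasi-likelihood test, and a gene passed where its Benjamini-Hochberg adjusted p over all genes tested was under 0.05. Genes are said to be higher, lower, to have risen or fallen where they passed. The labels do not say whether the 3 libraries of a group came from separate cultures, so p-values reflect how far these libraries vary, and that variation may be technical. In bulk RNA, a change in the number of cells of a type and a change in RNA per cell cannot be told apart. POU5F1, NANOG, TDGF1, ALPG and ALPP, the keratins, PGK1, LDHA, ENO1, GAPDH, ZNF genes and mitochondrial genes have close copies in the genome, and neither the treatment of shared reads nor the strand setting is stated in the labels. Values of these genes, and of genes that overlap another, are therefore uncertain.

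The labelled states were first checked against markers. Among the naive markers, KLF17, a KLF factor specific to the naive state, had 10.5, 11.9 and 9.69 CPM in naive libraries and no counts in any primed library. DNMT3L, which assists the de novo methyltransferases, had 48.7, 52.5 and 57.9 CPM in naive libraries and 0.149, 0 and 0.270 CPM in primed libraries. Both markers separated the states completely. DPPA5, an RNA-binding protein of naive cells, differed less, with 8.45, 7.63 and 6.60 CPM in naive libraries and 5.35, 3.98 and 5.03 CPM in primed libraries. The change of DPPA5 was 1.56-fold (log2 0.64 ± 0.23, edgeR adjusted p = 0.00976), and its groups did not overlap. KHDC1L held 4 counts over the naive group and 0 over the primed group and was not tested. All 4 primed markers were lower in naive cells. ZIC2, a zinc finger factor of the primed state, had 14.3, 13.2 and 11.5 CPM in naive libraries against 191, 183 and 195 CPM in primed libraries. The other 3, SFRP2, THY1 and DUSP6, stood at or under 1 CPM in every naive library. The labelled states therefore carried both sets of markers, with DPPA5 and KHDC1L low in the naive cells.

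Across all genes the states differed widely. Of the 15874 genes tested, 11289 passed (71.1%), 5557 of them higher in naive cells (35.0%) and 5732 lower (36.1%). At least 4-fold changes that passed numbered 908 higher (5.72%) and 1324 lower (8.34%). The libraries of the states did not overlap in 5693 genes with naive above primed (35.9%) and in 5870 genes with primed above naive (37.0%). The median change of all genes was 0.002 on the log2 scale, and the median size of a change was 0.597. TMM scaling centres the changes near 0, so the first of these medians is largely set by the scaling. With total count scaling the median of chromosome 1 was −0.099 in place of −0.018, so list medians this close to 0 have no firm sign. With so many genes called, a share of members near these percentages is no feature of a list, and each list below is read against them.

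**Figure D1:**
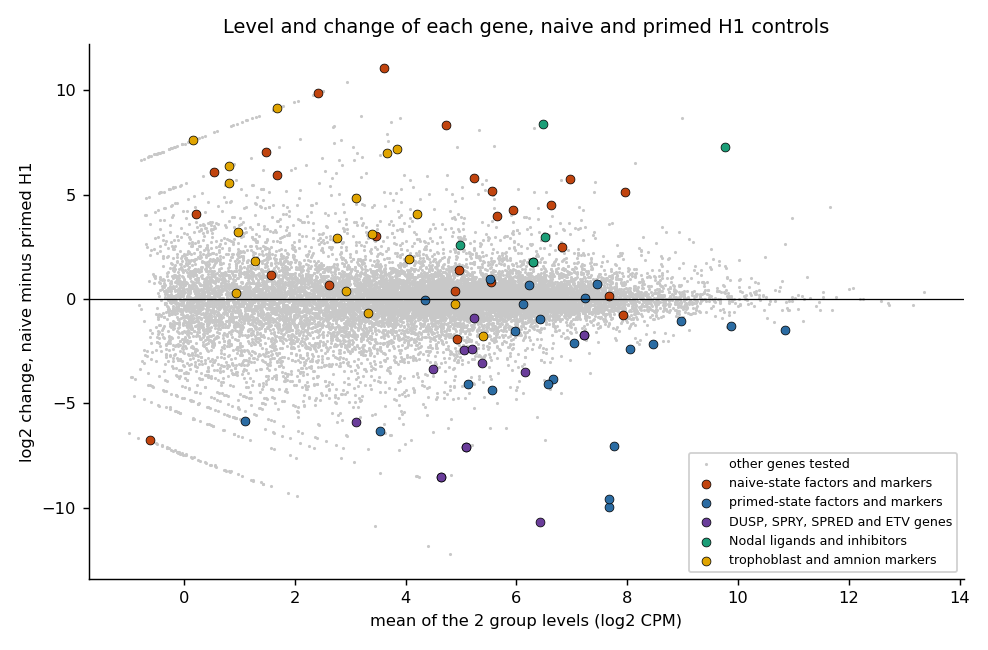
Each point is a gene tested in H1, with the mean of the naive and primed levels (log2 CPM) on the horizontal axis and the log2 change, naive minus primed, on the vertical axis. Gene lists are coloured, and genes without a count in a whole group lie on slanted lines, where the plotted change depends on the fit and is no bound. Naive-state genes lie mostly above 0, and primed-state genes, DUSP, SPRY, SPRED and ETV genes mostly below it.

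Among the genes with the largest fitted rise, several had no primed counts. The fitted size of such genes is no bound, so the genes of this set are given in no order of size. OLAH, a thioesterase of fatty acid synthesis, had 28.2, 22.9 and 22.0 CPM in naive libraries and none in primed libraries, a rise of at least 263-fold against a floor of 3 counts over the group. WNT8A, a WNT ligand, had 22.6, 25.4 and 22.5 CPM in naive libraries and none in primed libraries (at least 252-fold). Neither gene had a read in any primed library. CCER2, GSTA3 and KLF17 were likewise without primed counts and rose at least 164-fold, 123-fold and 115-fold. PCAT14, a long noncoding RNA of a retroviral locus, had 1021, 993 and 1017 CPM in naive libraries and 2.01, 1.86 and 3.42 CPM in primed libraries. PCAT14 rose 409-fold (log2 8.68 ± 0.08, edgeR adjusted p = 1.67e-68), with the groups far apart. The other genes of this set were TF, the iron carrier transferrin, B4GALNT2, SCGB1D2, TRIM75, HAND1, DLX5, GGT5, GPC1-AS1, GREB1L, CCR8, CER1, DNMT3L, CNR2 and SLITRK2.

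The genes with the largest fitted fall also included transcripts with no naive counts, and they too are given in no order of size. D21S2088E, annotated as a long noncoding gene, had no counts in naive libraries and 56.2, 56.9 and 54.9 CPM in primed libraries, at least 611-fold lower in naive cells. SLC38A4, an amino acid transporter, had no counts in naive libraries and 39.7, 43.4 and 44.5 CPM in primed libraries, at least 461-fold lower in naive cells. Both were absent from all 3 naive libraries at these depths. The set also held SPRY4, SFRP2, THY1 and DUSP6, which are described with their lists, and, among others, CXCL6, AC027031.2, GLP1R, OR52A1, NOVA2, IGSF21, LINC02700, GRIA4, TMEM59L, NPR1, PLA2G4C and SEMG1. GRIA4 encodes a subunit of a glutamate receptor and NOVA2 a splicing factor of neurons.

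Transcription factors of the naive state were higher in naive cells with 2 exceptions. All 12 factors of the list passed the low-count filter, 10 rose and 2 fell, with a median change of 3.23 against 0.002 over all genes. KLF5 had 196, 190.3 and 182 CPM in naive libraries and 8.84, 5.30 and 10.2 CPM in primed libraries. KLF4 had 97.3, 89.3 and 96.0 CPM in naive libraries and 4.75, 8.75 and 5.48 CPM in primed libraries. TFAP2C, an AP-2 factor that opens naive enhancers, had 188, 185 and 202 CPM in naive libraries and 29.2, 37.3 and 36.9 CPM in primed libraries. In all of them every naive library lay above every primed library, and the rises were 22.5-fold for KLF5, 15.7-fold for KLF4 (edgeR adjusted p = 2.87e-40) and 5.63-fold for TFAP2C. TBX3, a T-box factor, rose 36.3-fold, to 91.5 ± 3.12 CPM in naive cells against 2.41 ± 0.708 CPM in primed cells. The homeobox gene ARGFX held 95 counts over the naive and 1 over the primed group, a ratio of 93.2 (95% interval 16.3 to 3718), and KLF2 held 206 and 3, a ratio of 67.3 (95% interval 22.7 to 329). These intervals cover counting error only. TFCP2L1 rose 2.63-fold, VENTX 1.31-fold and ZFP42, also known as REX1, 1.10-fold. The calls of VENTX and ZFP42 were lost without a library, with edgeR adjusted p = 0.0592 for VENTX without naive library 3 and 0.103 for ZFP42 without primed library 1, and that of ZFP42 was also lost with total count scaling (0.353).

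The exceptions were nuclear receptors. NR5A2 had 15.8, 10.5 and 11.5 CPM in naive libraries and 48.8, 48.4 and 48.8 CPM in primed libraries and was 3.84-fold lower in naive cells. ESRRB had no counts in naive libraries and 1.04, 1.99 and 0.899 CPM in primed libraries, at least 13.3-fold lower in naive cells. ESRRB is a factor of the naive state in the mouse, and its primed level here was about 1 CPM.

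A list of 20 naive-state markers, apart from the factors, holds DPPA5 and KHDC1L of the check above. Some of its genes, such as DPPA2, count in other lists too. Of the 20 markers, 14 passed the low-count filter. Of these 13 rose and 1 fell, with a median change of 4.15. NLRP7, a maternal-effect protein, had 249, 241 and 248 CPM in naive libraries and 4.68, 3.71 and 4.85 CPM in primed libraries (54.5-fold, edgeR adjusted p = 5.98e-56). ALPG, a placental-type alkaline phosphatase, had 73.8, 76.2 and 73.4 CPM in naive libraries and 1.63, 0.530 and 1.53 CPM in primed libraries, and SUSD2, a surface protein used to sort naive cells, had 117, 114 and 119 CPM in naive libraries and 6.46, 5.04 and 6.65 CPM in primed libraries. For all of them the groups lay far apart. DPPA3, a protector of methylation in the egg, rose 8.10-fold, to 19.7 ± 2.75 CPM in naive cells against 2.49 ± 0.559 CPM in primed cells. KHDC3L, NLRP2 and DPPA2 also rose. ALPL, the tissue-nonspecific phosphatase, was lower, at 179.6 ± 8.78 CPM in naive cells against 308 ± 8.49 CPM in primed cells. The 6 markers that missed the filter held few counts over the naive and primed groups, namely TRIM60 with 48 and 0, CD70 with 12 and 24, KHDC1L with 4 and 0, NNMT with 2 and 1, MAGEB2 with 1 and 21, and HORMAD1 with 0 in both. Among 16 genes of zygotic genome activation, ZSCAN4, LEUTX and TPRX1 had no naive count, and only CCNA1 and SLC34A2 passed the filter, both lower in naive cells.

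Primed-state genes fell together in naive cells, with a few that rose. Of the 11 primed-state factors that passed the filter, 8 fell, 2 rose and 1 did not pass, with a median change of −2.09. Of 15 other primed markers, 13 fell, 1 rose and 1 did not pass, with a median of −2.38. SFRP2, a secreted WNT antagonist, had 0.676, 0.347 and 0.107 CPM in naive libraries and 418, 394 and 416 CPM in primed libraries. THY1, the surface antigen CD90, had 0.591, 0.694 and 0.213 CPM in naive libraries and 410.0, 406 and 411 CPM in primed libraries. PTPRZ1, a receptor phosphatase, had 3.29, 3.29 and 2.98 CPM in naive libraries and 417, 419.5 and 457 CPM in primed libraries. None of these genes came near its primed level in any naive library. THY1 was 772-fold lower (log2 −9.59 ± 0.11, edgeR adjusted p = 4.9e-63) and PTPRZ1 134-fold lower in naive cells.

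SOX3, a SOX factor of early neural tissue, was 79.3-fold lower in naive cells, ZIC5 20.5-fold and ZIC2 14.5-fold. USP44, a deubiquitinase, had 9.80, 9.19 and 13.8 CPM in naive libraries and 178, 172 and 187 CPM in primed libraries, with no overlap. NTS, CYTL1, GPC4, CDH2, CD24, PODXL, VCAN and VIM were lower too, by 1.19-fold for VIM to 17.0-fold for NTS among those with at least 10 naive counts. Of the primed-state genes, 3 rose instead. OTX2, a homeobox factor of the epiblast and forebrain, was higher in naive cells, with 60.8, 63.4 and 58.7 CPM in naive libraries and 27.7, 36.3 and 30.7 CPM in primed libraries. FOXH1, a partner of SMAD2, rose 1.6-fold, and FGF2 rose 1.62-fold. GRPR, at 20.3 ± 0.595 CPM in naive cells and 20.8 ± 1.56 CPM in primed cells, did not pass.

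Surface antigens split by state. Of 11 naive surface genes 9 passed the filter, and those 9 rose, with a median of 3.37. They included IL6ST, the shared receptor chain of LIF and interleukin 6, A4GALT, CD53 and CD7. Of 10 primed surface genes, 7 fell and 3 rose, namely CD44, CD151 and ST3GAL2.

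**Figure D2:**
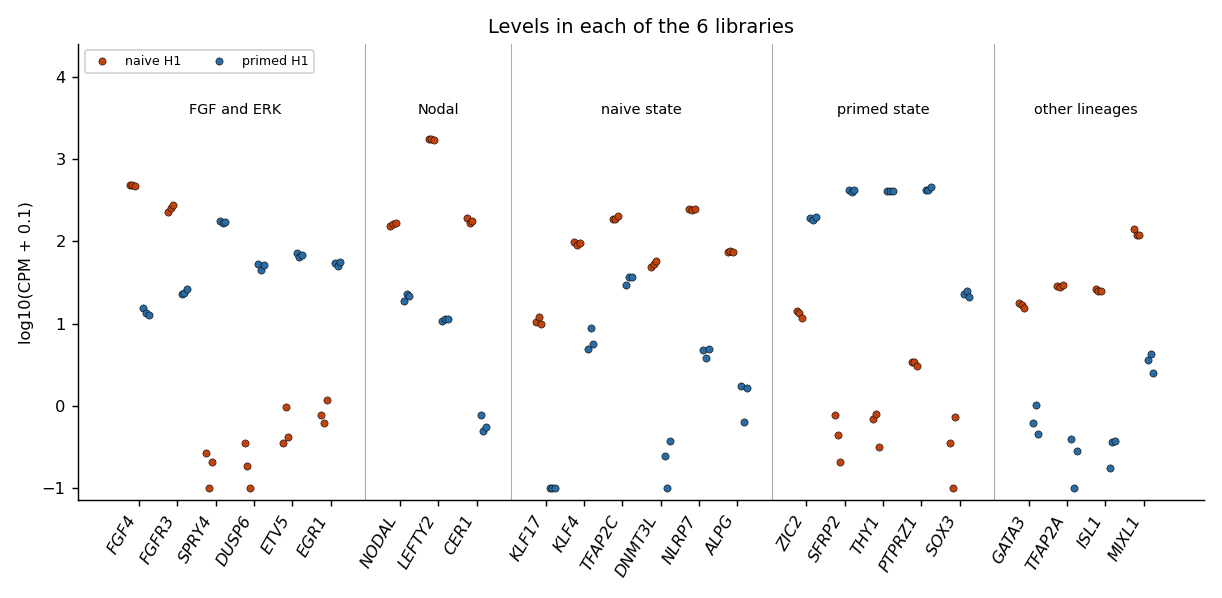
Levels in log10(CPM + 0.1) on the vertical axis are shown for 24 genes, with 3 points for naive libraries on the left and 3 for primed libraries on the right of each gene. The points of the states do not overlap in any gene shown. KLF17 had no count in primed libraries, which puts its primed points at −1.

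Core pluripotency genes moved both ways, mostly by less than 4-fold. All 15 genes of the list passed the filter, 6 rose, 8 fell and 1 did not pass, with a median change of −0.11. Rises and falls offset each other in this median. At least 4-fold changes numbered 2, both lower, against 5.72% higher and 8.34% lower over all genes tested. POU5F1, which encodes OCT4, had 1458, 1539 and 1536 CPM in naive libraries and 1447, 1434 and 1317 CPM in primed libraries, a rise of 1.08-fold (edgeR adjusted p = 0.0068). NANOG had 135, 133 and 138 CPM in naive libraries and 132, 130.1 and 134 CPM in primed libraries, and its groups overlapped (edgeR adjusted p = 0.553). SOX2 was 1.48-fold and the RNA-binding protein LIN28A 1.88-fold lower in naive cells. PRDM14, a repressor of differentiation, rose 1.85-fold, and SALL4, DPPA2 and TDGF1 rose by less. LIN28B passed (edgeR adjusted p = 0.0464) although its groups overlapped. The large changes were in FOXD3, a forkhead factor, at 0.894 ± 0.574 CPM in naive cells and 14.9 ± 1.22 CPM in primed cells, and in TERT, the catalytic subunit of telomerase. TERT had 1.52, 1.04 and 1.6 CPM in naive libraries and 13.1, 11.4 and 13.4 CPM in primed libraries and was 9.17-fold lower in naive cells. DPPA4, L1TD1, TRIM71 and UTF1 also fell. Several of these small changes depended on the libraries or the scaling. POU5F1 had an edgeR adjusted p of 0.126 without primed library 3 and 0.486 with total count scaling, DPPA4 0.0562 without primed library 2 and 0.223 without naive library 3, and UTF1 0.0557 without primed library 3, 0.0536 without naive library 1 and 0.0518 without naive library 2. LIN28B had 0.399 without primed library 1, 0.0621 without primed library 2 and 0.167 without naive library 1, and TDGF1 0.255 with total count scaling.

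FGF ligands were higher in naive cells while the feedback genes of the pathway were lower. FGF ligands act on FGF receptors, which activate the ERK kinases. ERK in turn switches on ETS factors such as ETV4 and ETV5, the phosphatases DUSP4, DUSP5 and DUSP6 and the inhibitors of the SPRY and SPRED families, which hold the pathway back. Of the 23 genes of the list, 6 rose, 16 fell and 1 did not pass, with a median of −1.74.

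Among the ligands, FGF4, a target of OCT4 and SOX2, had 489.7, 481 and 476 CPM in naive libraries and 15.3, 13.4 and 12.6 CPM in primed libraries. Every naive library of FGF4 lay far above the primed ones (34.7-fold, log2 5.12 ± 0.07, edgeR adjusted p = 2.05e-60). FGF8, FGF2 and FGF13 rose 2.48-fold, 1.62-fold and 1.27-fold. The receptors went both ways. FGFR3 had 229, 251 and 274 CPM in naive libraries and 23.1, 23.3 and 26.3 CPM in primed libraries (10.3-fold), and FGFR2 rose 2.15-fold. FGFR1 had 145, 149 and 138 CPM in naive libraries and 393, 376 and 380.2 CPM in primed libraries and was 2.66-fold lower in naive cells, and FGFR4 was 2.24-fold lower. The groups did not overlap in FGFR3 or FGFR1.

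The 8 DUSP, SPRY and SPRED genes were all lower in naive cells, 7 of them at least 4-fold, with a median of −3.23. SPRY4 had 0.169, 0 and 0.107 CPM in naive libraries and 176, 168 and 172 CPM in primed libraries. With 3 counts over the naive and 5550 over the primed group, its ratio of primed to naive was 1886 (95% interval 645 to 9149.7), which covers counting error only. DUSP6, the ERK phosphatase, had 0.253, 0.0867 and 0 CPM in naive libraries and 53.2, 45.1 and 50.9 CPM in primed libraries (374-fold lower, log2 −8.55 ± 0.26, edgeR adjusted p = 3.26e-39). SPRY4 and DUSP6 were thus near 0 in all naive libraries. DUSP4 was 59.3-fold lower, DUSP5 10.3-fold, SPRED1 8.53-fold, SPRY1 5.42-fold and SPRY2 5.36-fold. SPRED2, the smallest change, had 26.2, 26.3 and 25.9 CPM in naive libraries and 50.2, 43.6 and 54.4 CPM in primed libraries, still without overlap.

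The ERK-dependent factors fell with them. ETV5 had 0.253, 0.867 and 0.320 CPM in naive libraries and 71.2, 64.6 and 68.1 CPM in primed libraries (136-fold lower). ETV1 and ETV4 were 11.3-fold and 3.33-fold lower. EGR1, an immediate early factor, had 0.676, 0.520 and 1.07 CPM in naive libraries and 55.2, 50 and 55.6 CPM in primed libraries (72.2-fold lower, edgeR adjusted p = 2.73e-39). All naive values of both genes were near 1 CPM or below. IER3 and CCND1 were lower as well, and PHLDA1, at 36.1 ± 1.27 CPM in naive cells and 39.2 ± 2.83 CPM in primed cells, did not pass. DUSP5, SPRED1, SPRED2, SPRY1, SPRY2, IER3, CCND1, FGFR1 and FGFR4 lie outside the rule for naming genes and were chosen after their values were seen.

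The promoter of EGR1 is shown because serum response factor, which acts downstream of ERK, is known to bind CArG boxes there. The 250 bases before its start (GRCh38.p14, RefSeq, chr5:138465229-138465478, plus strand) hold 2 CArG boxes, in capitals, that begin 105 and 83 bases before the start.
EGR1: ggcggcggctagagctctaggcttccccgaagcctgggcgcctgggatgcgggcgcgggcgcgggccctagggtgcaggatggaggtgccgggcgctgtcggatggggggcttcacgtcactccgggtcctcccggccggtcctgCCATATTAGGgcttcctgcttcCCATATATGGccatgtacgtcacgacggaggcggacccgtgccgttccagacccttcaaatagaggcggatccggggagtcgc
A CArG box was found in 1.77% of the promoters of genes at least 4-fold higher, in 0.968% of those at least 4-fold lower and in 1.03% of those of all genes tested, with both strands searched in windows of the same length (565, 930 and 11487 promoters). An ETS core, CCGGAAGT, was found in 1.95% of the 4-fold higher, 0.753% of the 4-fold lower and 6.70% of all tested promoters. These matches describe letters and were not tested as binding sites.

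Nodal ligands and their inhibitors rose together. Nodal and its relative GDF3 signal through activin receptors and SMAD2 and SMAD3 with FOXH1, and the targets LEFTY1, LEFTY2 and CER1 are secreted inhibitors of the same pathway. The 5 genes NODAL, GDF3, LEFTY1, LEFTY2 and CER1 were all higher in naive cells, with a median of 2.95. Of the 17 genes of the wider list, 12 rose, 3 fell and 2 did not pass, with a median of 0.62. LEFTY2 had 1737, 1732 and 1709.8 CPM in naive libraries and 10.5, 11.3 and 11.4 CPM in primed libraries. CER1 had 192, 168 and 175 CPM in naive libraries and 0.669, 0.398 and 0.449 CPM in primed libraries. NODAL had 154, 162 and 168 CPM in naive libraries and 18.9, 22.7 and 21.7 CPM in primed libraries. In all of them each naive library was many times above each primed library. The rises were 156-fold for LEFTY2 (log2 7.29 ± 0.06, edgeR adjusted p = 3.95e-72), 330.2-fold for CER1 and 7.73-fold for NODAL. INHBA, which encodes the activin A subunit, went the other way, with 2 counts over the naive and 112 over the primed group, a ratio of primed to naive of 57.1 (95% interval 15.4 to 477), and INHBE and ACVR2B were lower. FST and ACVR2A did not pass.

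BMP, WNT and LIF signalling genes moved in both directions, as all genes tested did. Of all genes tested, 35.0% were higher and 36.1% lower in naive cells. Of 12 BMP pathway genes that passed the filter, 8 rose and 4 fell, with a median of 0.96. BMP2 had 36.4, 39.4 and 33.1 CPM in naive libraries and 4.75, 7.43 and 5.48 CPM in primed libraries, and BMP4 had 80.9, 87.4 and 90.3 CPM in naive libraries and 22.9, 20.8 and 22.9 CPM in primed libraries. Both ligands were higher in every naive library. MSX2 and SMAD6, targets of BMP signalling, rose 9.90-fold and 2.83-fold. ID3, another target, was 15.8-fold lower, at 3.19 ± 1.33 CPM in naive cells and 49.3 ± 0.611 CPM in primed cells.

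Of 17 WNT genes, 7 rose, 9 fell and 1 did not pass. WNT3 had 60.7, 58.2 and 58.5 CPM in naive libraries and 8.84, 6.5 and 6.20 CPM in primed libraries (8.06-fold), and the receptors FZD5 and FZD8 and the feedback gene RNF43 rose 3.69-fold, 2.93-fold and 3.56-fold. The antagonist SFRP1 was 22.7-fold lower, with 8.03, 9.54 and 10.9 CPM in naive libraries and 213, 218 and 210.1 CPM in primed libraries, and the receptor FZD7 was 5.20-fold lower. The WNT3 and SFRP1 groups did not overlap. DKK1, LEF1, SP5 and LGR5 had under 50 counts in either group and were not tested.

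Of 13 LIF and STAT3 genes, 7 rose, 5 fell and 1 did not pass, with a median of 1.24. IL6ST had 114, 111 and 109 CPM in naive libraries and 10.8, 14.2 and 10.8 CPM in primed libraries, and the interleukin 6 receptor IL6R had 98.3, 92.6 and 84.4 CPM in naive libraries and 12.1, 12.9 and 14.6 CPM in primed libraries. STAT3, the transcription factor of the pathway, rose 2.53-fold. LIFR, LIF, JAK1, PIM1 and GBX2 were lower in naive cells, and the feedback inhibitor SOCS3, at 20.2 ± 3.34 CPM in naive cells and 23 ± 0.841 CPM in primed cells, did not pass (edgeR adjusted p = 0.148, and 0.029 without naive library 3).

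**Figure D3:**
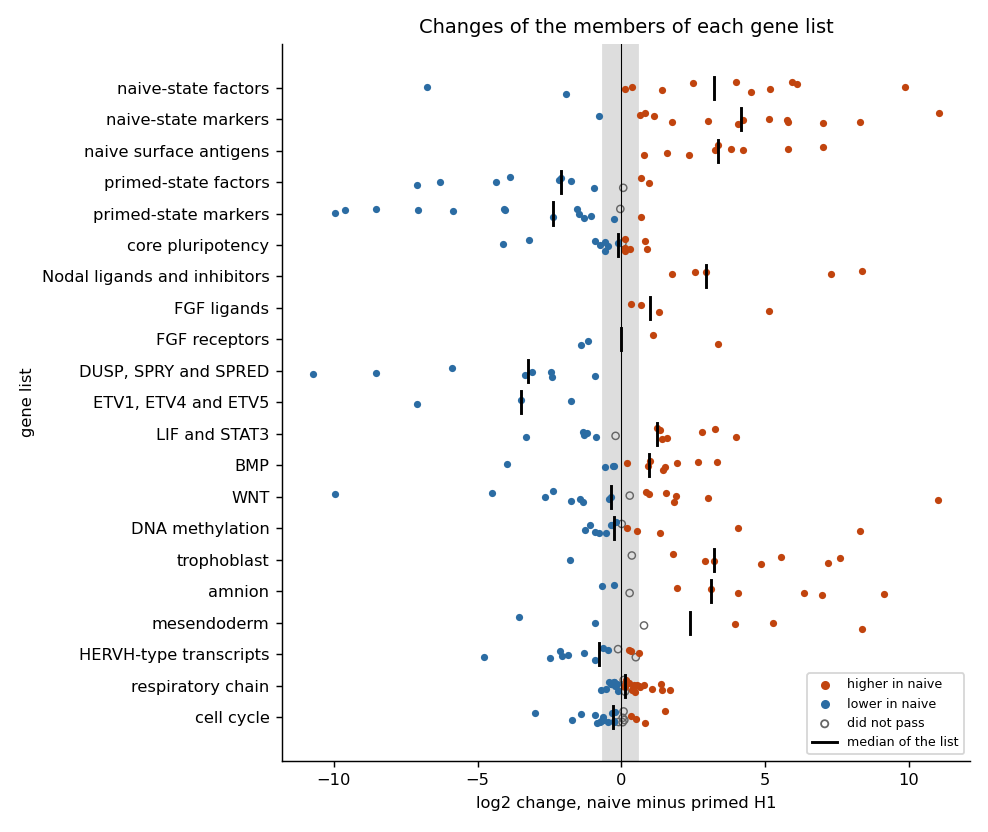
The log2 change, naive minus primed H1, of each tested member is plotted by gene list, with filled points for members that passed, open points for those that did not, and a black bar at the list's median. The grey band spans the middle quartiles of all genes tested, −0.64 to 0.56. Nodal ligands and inhibitors lie wholly to the right and DUSP, SPRY and SPRED genes wholly to the left, while core pluripotency, respiratory chain and cell cycle genes lie mostly near 0.

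DNA methylation genes moved in both directions, with a median of −0.25 against 0.002 over all genes. Of 14 writers, readers and erasers, 5 rose, 8 fell and 1 did not pass. DNMT3B, a de novo methyltransferase, had 1010.4, 1037 and 1036 CPM in naive libraries and 2227, 2173 and 2152 CPM in primed libraries. DNMT1, the maintenance methyltransferase, had 126, 128 and 126 CPM in naive libraries and 243, 232 and 244 CPM in primed libraries. TET2, a demethylating dioxygenase, had 31.9, 28.4 and 25.6 CPM in naive libraries and 2.01, 1.33 and 1.71 CPM in primed libraries. DNMT3B and DNMT1 were 2.13-fold and 1.89-fold lower and TET2 was 16.4-fold higher in naive cells (edgeR adjusted p = 2e-28), each without overlap. UHRF1, the partner of DNMT1, TET1 and TET3 were lower, and MBD2, ZNF445 and DNMT3A were higher. TRIM28, at 819 ± 34.8 CPM in naive cells and 811 ± 32.4 CPM in primed cells, did not pass. ZFP57, a guardian of imprints, fell with an edgeR adjusted p of 0.0499, just under the threshold, and its groups overlapped. Without primed library 2 or 3 or naive library 2 or 3 that p was 0.177, 0.141, 0.246 and 0.227.

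Among 16 genes of PRC2, H3K9 methylation and HUSH, 7 rose, 8 fell and 1 did not pass, with a median of −0.07. JARID2, an accessory subunit of PRC2, had 171, 162 and 166 CPM in naive libraries and 673, 682 and 692 CPM in primed libraries (4.10-fold lower), while the catalytic subunit EZH2 did not pass, at 74.2 ± 0.659 CPM in naive cells and 70.2 ± 1.79 CPM in primed cells. The HUSH subunits MPHOSPH8, PPHLN1 and TASOR rose 2.56-fold, 1.69-fold and 1.37-fold. Of 19 imprinted genes that passed the filter, 5 rose, 11 fell and 3 did not pass, with a median of −0.69. IGF2 and CDKN1C rose 11.5-fold and 2.86-fold, and NNAT and NDN were 3.51-fold and 2.39-fold lower. H19 and MEG3 had 1 count over the naive group and none over the primed group.

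Markers of other lineages were measured beside these results. Of 17 trophoblast markers 9 passed the filter, with 7 higher, 1 lower and 1 that did not pass. TFAP2A, an AP-2 factor of trophoblast, amnion and surface ectoderm, had 28.6, 28.1 and 29.5 CPM in naive libraries and 0.297, 0 and 0.18 CPM in primed libraries (145-fold). GATA3 had 17.5, 16.9 and 15.3 CPM in naive libraries and 0.520, 0.928 and 0.360 CPM in primed libraries (28.9-fold). GATA2 and NR2F2 were higher, TEAD3 lower, and KRT7 did not pass, with 7.35, 10.3 and 7.88 CPM in naive libraries and 6.83, 8.09 and 5.21 CPM in primed libraries, which overlapped. CDX2 held 7 counts over the naive group, ELF5 13, CGA 7 and VGLL1 5, and each had 0 over the primed group. The summed level of the list was 97.2 to 102 CPM in naive libraries and 72.1 to 79.0 CPM in primed libraries. TEAD3, the member that fell, gave 19 CPM of it in naive and 65.3 CPM in primed cells, so most of the primed sum came from this 1 gene.

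Of 12 amnion markers 9 passed the filter, with 6 higher, 2 lower and 1 that did not pass. ISL1, a LIM homeobox factor of amnion and mesoderm, had 25.9, 25.1 and 24.6 CPM in naive libraries and 0.0743, 0.265 and 0.270 CPM in primed libraries (127-fold). HAND1 had 4.56, 8.06 and 6.71 CPM in naive libraries and no primed counts (at least 68.7-fold). GABRP, a receptor subunit and defining amnion marker, was lower, at 7.65 ± 1.00 CPM in naive cells and 12.4 ± 0.669 CPM in primed cells, and VTCN1 had 115 and 1 counts over the groups. The summed level was 152 to 157 CPM in naive libraries and 55.3 to 60.3 CPM in primed libraries.

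Of 11 mesendoderm markers 6 passed the filter, with 3 higher, 2 lower and 1 that did not pass. MIXL1, a homeobox factor of the primitive streak, had 139, 121 and 120.4 CPM in naive libraries and 3.49, 4.11 and 2.43 CPM in primed libraries (38.7-fold). TBXT, or brachyury, had 9.72, 9.36 and 7.35 CPM in naive libraries and 0.669, 0.398 and 0.539 CPM in primed libraries. Both were higher in every naive library, while EOMES, with 10 and 20 counts, was near 0 in both states. KDR, a VEGF receptor, was 11.8-fold lower in naive cells. The summed level was 326 to 372 CPM in naive libraries, and 302 to 310 CPM in primed libraries. Different genes made up these sums, since CER1 gave 178 CPM in naive and 0.505 CPM in primed cells, and KDR 25 CPM in naive and 296 CPM in primed cells.

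Primitive endoderm markers summed to 58.6 to 68.5 CPM in naive libraries and 35.3 to 48.4 CPM in primed libraries, with 2 of 6 tested higher, 3 lower and 1 that did not pass. FLRT3, a membrane protein, rose 38.3-fold and gave 51.8 CPM of the sum in naive and 1.47 CPM in primed cells. HNF4A had 1.18, 1.30 and 2.13 CPM in naive libraries and no primed counts (at least 16-fold higher). NID2, AFP and the defining marker GATA4 were lower, AFP with an edgeR adjusted p of 0.00776 that was 0.0756 without naive library 3, and SOX17 had 0 counts in both states. Neural markers summed to 498 to 526 CPM in naive libraries and 492 to 525 CPM in primed libraries, of which NES, an intermediate filament gene that did not pass, gave 480.1 CPM in naive and 483 CPM in primed cells. Of 6 neural markers tested, 2 were higher, 2 lower and 2 did not pass. The homeobox factors MEIS2 and LHX5 rose 56.6-fold and 11-fold, MEIS2 to 18.2 ± 2.67 CPM in naive cells against 0.267 ± 0.354 CPM in primed cells. FEZF1 was 30.9-fold and POU3F1 3.64-fold lower. The defining neural markers PAX6 and SOX1 held under 20 counts in either group. Fibroblast markers summed to 607 to 680 CPM in naive libraries and 688 to 717 CPM in primed libraries, with 3 of 9 tested higher, 5 lower and 1 that did not pass. The collagens COL1A2 and COL6A2 rose 1.96-fold and 1.43-fold, COL1A2 to 296 ± 6.26 CPM in naive cells against 151 ± 9.58 CPM in primed cells, and TWIST1 held 148 counts over the naive and 3 over the primed group. COL1A1, COL6A3, PDGFRB, TAGLN and COL6A1 were lower, COL1A1 by 18.5-fold. The defining markers DCN and LUM held at most 2 counts in a group. Of 7 germline genes tested 3 rose, PRDM1 by 39.0-fold, and 4 fell. The part of cells of these lineages in the naive results was not tested.

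The promoters of KLF17 and GATA3 are shown because both genes rose beside the AP-2 genes TFAP2C and TFAP2A. In the 250 bases before the start (GRCh38.p14, RefSeq), KLF17 (chr1:44118571-44118820, plus strand) has an AP-2 half-site pair, GCCNNNGGC, that begins 101 bases before the start. GATA3 (chr10:8045083-8045332, plus strand) has a pair at 223 bases and a KLF and SP box, GGGNGTGG, at 189 bases before the start. Capitals mark these matches.
KLF17: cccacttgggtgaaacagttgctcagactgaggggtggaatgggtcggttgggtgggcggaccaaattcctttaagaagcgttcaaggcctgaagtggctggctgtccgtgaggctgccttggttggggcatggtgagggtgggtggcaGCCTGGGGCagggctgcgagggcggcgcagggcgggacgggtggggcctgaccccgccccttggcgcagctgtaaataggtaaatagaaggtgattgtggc
GATA3: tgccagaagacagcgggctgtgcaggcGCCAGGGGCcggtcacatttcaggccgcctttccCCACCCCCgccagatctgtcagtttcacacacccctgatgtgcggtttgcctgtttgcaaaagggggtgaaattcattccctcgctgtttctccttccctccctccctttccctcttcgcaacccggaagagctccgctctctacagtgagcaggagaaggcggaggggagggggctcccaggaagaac
The AP-2 pair was found in 26.7% of the promoters of genes at least 4-fold higher, 27.4% of those at least 4-fold lower and 27.8% of those of all genes tested. The KLF box was found in 21.6%, 21% and 19.3% of the same sets. Both strands were searched. These matches describe letters, and a part of AP-2 or KLF factors in the rise of either gene was not tested.

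Long noncoding and retroviral transcripts known from pluripotent cells moved both ways. The long terminal repeats of endogenous retroviruses are active in pluripotent cells and drive several long noncoding RNAs. Of the 14 transcripts that passed the filter, 3 rose, 9 fell and 2 did not pass, with a median of −0.77. ESRG, a HERVH transcript abundant in both states, had 3475, 3261 and 3202 CPM in naive libraries and 2736, 2666 and 2572 CPM in primed libraries, a rise of 1.25-fold. LINC00458 was 27.4-fold, ERVH48-1 4.4-fold and LINC-ROR 3.60-fold lower in naive cells. LNCPRESS1, LINC01356, TUNAR, LINC00678, LINC01108 and HHLA1 were lower too, ABHD12B and SCGB3A2 were higher, and LNCPRESS2 and LINC00545 did not pass. ERVH48-1 had 20.5, 18.5 and 21 CPM in naive libraries and 95.1, 79.8 and 87.5 CPM in primed libraries, without overlap. Among all gene classes, long noncoding genes had 10.7% of 1184 at least 4-fold higher and 9.04% at least 4-fold lower, against 5.2% and 8.76% of 13532 protein-coding genes.

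Zinc finger genes of chromosome 19 differed from other genes of the chromosome. Many of them encode KRAB proteins that silence retroelements. The median change by chromosome ran from −0.18 on chromosome 15 to 0.16 on chromosome 19 among the autosomes and X. In runs of 50 neighbouring tested genes, the highest median was 1.22, at chr19:50976482-53133077, where 38 genes were higher and 7 lower and 35 had ZNF symbols. Of the 246 ZNF genes tested on chromosome 19, 162 were higher and 17 lower, with a median of 0.69. The rest of chromosome 19 had a median of 0.03, and the 257 ZNF genes elsewhere had 100 higher and 68 lower, with a median of 0.13. This split by name was chosen after the values were seen. Of 9 listed KRAB genes that passed the filter, 6 rose, 1 fell and 2 did not pass. ZNF600 had 119, 112 and 129 CPM in naive libraries and 13.3, 13.7 and 12.9 CPM in primed libraries (9.03-fold). ZNF611, ZNF468 and ZNF528 rose 4.63-fold, 3.87-fold and 2.87-fold. The lowest run, chr15:75355207-80755621, had a median of −0.63, with 8 genes higher and 29 lower.

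Metabolic genes changed in both directions, as all genes tested did, with 35.0% higher and 36.1% lower. The medians of the metabolic lists all lay within the middle quartiles of all genes, −0.64 to 0.56. Of 26 glycolysis and hypoxia genes tested, 10 rose, 15 fell and 1 did not pass, with a median of −0.20. PFKL, a phosphofructokinase, had 459, 512 and 548 CPM in naive libraries and 108, 102 and 104 CPM in primed libraries (4.83-fold), and HK1, a hexokinase, had 112, 109 and 109 CPM in naive libraries and 485, 491 and 476 CPM in primed libraries (4.4-fold lower). The groups of both enzymes lay apart. VEGFA, ADM and SLC2A3, genes of the hypoxia response and glucose uptake, were 8.84-fold, 7.85-fold and 2.79-fold lower. Of 30 nuclear respiratory chain genes, 17 rose, 10 fell and 3 did not pass (median 0.14), led by NDUFV1 of complex I at 3.22-fold. Of 13 mitochondrially encoded genes, 8 rose, 3 fell and 2 did not pass (median 0.27), with MT-ND6 1.67-fold higher and MT-CO3 1.23-fold lower. Of 13 serine and one-carbon genes, 3 rose, 8 fell and 2 did not pass. PHGDH, the entry enzyme of serine synthesis, had 113, 113 and 109 CPM in naive libraries and 488, 475 and 449 CPM in primed libraries (4.20-fold lower). Of 18 sterol genes, 3 rose, 8 fell and 7 did not pass.

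Cell cycle genes leaned towards lower levels in naive cells. Of 24 tested, 4 rose, 15 fell and 5 did not pass, with a median of −0.30. MYC, a driver of growth, had 18.2, 22.2 and 18.9 CPM in naive libraries and 156, 174 and 150.1 CPM in primed libraries (8.07-fold lower). TOP2A, a topoisomerase of dividing cells, had 224, 209 and 204 CPM in naive libraries and 684, 711 and 702 CPM in primed libraries (3.28-fold lower), and no library of one state reached the other. CCND2 and MYCN were lower too, CDKN1C was higher, and CDKN1A, at 11.6 ± 1.06 CPM in naive cells and 11.1 ± 1.83 CPM in primed cells, did not pass. Of 17 p53 targets, 5 rose, 7 fell and 5 did not pass, with a median of −0.07. The share of them that passed was near the 71.1% of all genes tested and is no feature of the list. Of 14 stress response genes, 8 rose, 4 fell and 2 did not pass, with the chaperones HSPA5 and HSP90B1 1.87-fold and 1.80-fold higher.

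Adhesion and matrix genes included some of the most abundant changes. FN1, or fibronectin, had 3181, 3206 and 3088 CPM in naive libraries and 512, 527 and 511 CPM in primed libraries (6.11-fold). KRT8, a keratin of simple epithelia, had 1539, 1628 and 1729 CPM in naive libraries and 456, 434 and 434 CPM in primed libraries (3.70-fold). Of 22 matrix and integrin genes, 5 rose, 12 fell and 5 did not pass, and the laminin LAMA1 and integrin ITGA3 were 6.74-fold and 8.10-fold lower in naive cells. Of 16 cadherin and epithelial genes, 6 rose, 7 fell and 3 did not pass, with E-cadherin CDH1 1.29-fold higher and N-cadherin CDH2 2.90-fold lower. Of 14 YAP and TEAD genes, 6 rose, 6 fell and 2 did not pass, with a median of 0.08. The background for these 3 lists was 35.0% higher and 36.1% lower over all genes tested. CLU, or clusterin, a secreted chaperone, was among the 8 genes with the most counts in naive cells, at 6027, 6559.8 and 6069 CPM in naive libraries and 309.9, 283 and 296 CPM in primed libraries (21-fold). The 6 miR-302 transcripts had 3 lower and 3 that did not pass, with under 300 counts each. The genes lowered elsewhere in the study, ZIC2, ZNF8 and CARHSP1, were each lower in naive controls, by 14.5-fold, 1.51-fold and 1.10-fold. CARHSP1 (edgeR adjusted p = 0.0301) did not pass without primed library 1, 2 or 3 or naive library 1 (0.096, 0.0561, 0.0541 and 0.267).

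The change in H1 controls was set beside that in H9, a second embryonic stem cell line, with which it shares no library. The H9 labels give no genotype or treatment, so line, construct and doxycycline cannot be told apart. In H9, 8119 of 15761 genes passed (51.5%), 4009 higher (25.4%) and 4110 lower (26.1%), with a biological coefficient of variation of 9.67% against 6.13% in H1. Over the 14730 genes tested in both lines, Spearman's rho of the changes was 0.45, given as a description across genes. Of 6060 genes that passed in both, 4788 moved the same way and 1272 the opposite way. Of the genes tested in both, 149 were at least 4-fold higher in each line, where the background over all genes tested was 5.72% in H1 and 2.77% in H9. They were 24.2% of the 616 in H1 and 42.1% of the 354 in H9. Those background shares are over all genes tested in each line, where 908 genes in H1 and 436 in H9 were at least 4-fold higher. The 616 thus leave out genes that missed the H9 filter, KLF17 and GATA3 among them. At least 4-fold lower in each were 234, with 8.34% of all genes tested in H1 and 2.91% in H9 as the background. They were 20% of the 1171 in H1 and 61.3% of the 382 in H9, against 1324 and 458 over all genes tested in each line. The difference of the changes passed for 8551 of 17140 genes (49.9%).

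Several groups and single genes moved the same way in both lines, though often by different amounts. The 5 Nodal ligands and inhibitors were also all higher in naive H9, with a median of 5.32 against 2.95 in H1. The difference of the changes passed for all 5. Of the 4 FGF ligands, all higher in naive H1, 2 were higher and 2 lower in naive H9, and the difference passed for all 4. FGF4 had 169.8 ± 1.74 CPM in naive and 2.36 ± 0.331 CPM in primed H9 cells, and EGR1 had 1.84 ± 0.101 CPM in naive and 176 ± 11 CPM in primed H9 cells. The EGR1 change differed between the lines by 0.41 ± 0.35 on the log2 scale (edgeR adjusted p = 0.38), and that of NLRP7 by −0.22 ± 0.18 (adjusted p = 0.329). The antagonist SFRP1 fell in both, and the difference of its changes was −0.04 ± 0.12 (adjusted p = 0.813). For the naive markers, the difference of the changes passed in 14 of the 17 tested for it. Of 16 naive markers tested in H9, 15 rose and none fell, DPPA5 among them at 29.3 ± 3.10 CPM in naive and 2.60 ± 0.429 CPM in primed H9 cells. The naive-state factors did so less, since only 7 of the 12 passed the H9 filter. Of those 7, 5 rose and 1 fell, with a median of 1.46 against 3.23 in H1.

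Other genes fell in both lines but far more in H1. SFRP2 had 70.0 ± 2.20 CPM in naive and 161 ± 14.1 CPM in primed H9 cells, and its H1 change minus its H9 change was −8.76 ± 0.20 on the log2 scale (edgeR adjusted p = 4.07e-25). THY1 had 27.9 ± 0.151 CPM in naive and 145 ± 16.2 CPM in primed H9 cells (difference −7.20 ± 0.21). SPRY4 had 19.1 ± 2.40 CPM in naive and 59.1 ± 0.560 CPM in primed H9 cells (difference −9.07 ± 0.28, adjusted p = 1.31e-21). These primed genes were thus well detected in naive H9 cells, while each was under 1 CPM in every naive H1 control. PCAT14, which rose 409-fold in H1, had 10.8 ± 1.45 CPM in naive and 3.53 ± 0.321 CPM in primed H9 cells. GATA3, at 0.336 ± 0.0975 CPM in naive and 0.215 ± 0.0912 CPM in primed H9 cells, and KLF17, at 0.0693 ± 0.0606 CPM in naive and 0 CPM in primed H9 cells, missed the H9 filter on low values, so a defining naive marker of H1 was near 0 in naive H9. Only 5 trophoblast markers were tested in H9, with 2 higher and 2 lower in naive cells. Only 4 amnion markers were tested there, with none higher and 1 lower.

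Another set moved in opposite directions in the lines. Of the 8 DUSP, SPRY and SPRED genes, all lower in naive H1, 3 were higher and 4 lower in naive H9. DUSP5 had 21.1 ± 0.452 CPM in naive and 9.52 ± 0.786 CPM in primed H9 cells (difference −4.50 ± 0.21), and SPRY2 and SPRED2 were also higher in naive H9. TET2 was lower in naive H9, with 2.65 ± 0.223 CPM in naive and 6.93 ± 0.592 CPM in primed cells, and its changes differed by 5.42 ± 0.28 (edgeR adjusted p = 3.05e-16). FGFR3, at 48.0 ± 2.41 CPM in naive and 97.8 ± 17.0 CPM in primed H9 cells, BMP2 and OTX2 likewise rose in H1 and fell in H9. ERVH48-1 went the other way, with 739 ± 27.7 CPM in naive and 81.0 ± 4.99 CPM in primed H9 cells (difference −5.32 ± 0.12). ID3, VCAN, LINC-ROR and NDN also fell in H1 and rose in H9. GREB1L, among the largest line differences at 10.60 ± 0.57, rose in H1 and fell in H9, where its levels were 0.833 ± 0.641 CPM in naive and 3.28 ± 0.571 CPM in primed cells. The other genes with the largest fitted differences upward were CCER2, GADL1, GPC1-AS1, LYVE1, FGF1, DOK6 and GSTA3, in no order of size. CCER2, GPC1-AS1 and GSTA3 had no counts in primed H1 controls, so their fitted differences are no bounds. Downward, the largest fitted differences were those of EDNRB, MAGEB2, D21S2088E, ZNF667, ZNF667-AS1, TKTL1, ZNF595 and SOHLH2. EDNRB had 4.69 ± 0.717 CPM in naive and 0 CPM in primed H9 cells but 5.22 ± 0.781 CPM in naive and 74.7 ± 6.11 CPM in primed H1 controls. D21S2088E had no counts in naive H1 controls, so the fitted differences of EDNRB and D21S2088E are no bounds.

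**Figure D4:**
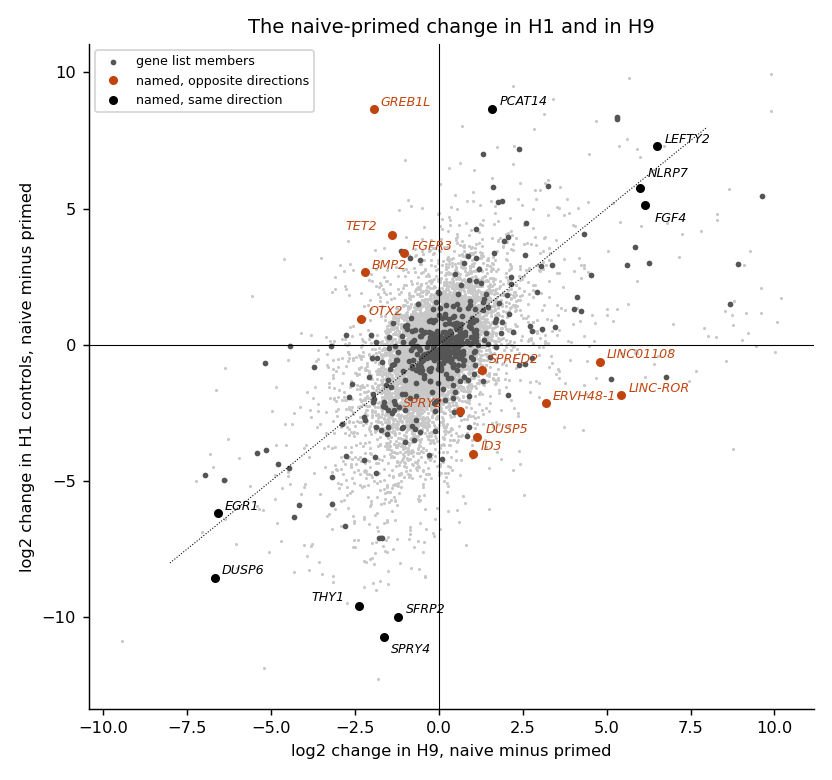
Each grey point is a gene tested in both lines, with the log2 change in H9 (naive minus primed) on the horizontal axis and that in H1 controls on the vertical axis, and darker points are gene list members. The dotted line marks equal changes. Named genes in orange moved in opposite directions, such as TET2 at 4.04 in H1 and −1.38 in H9, and those in black moved the same way.

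Levels of these genes in the other H1 groups are given without a test, since those groups share control libraries with this comparison, and they were scaled over all 18 H1 libraries. KLF17 averaged 1.53 CPM in ZNF8 knockdown naive cells and 10.8 CPM in naive controls, and had no counts in primed or ectoderm libraries. GATA3 averaged 0.336 CPM in ZNF8 knockdown naive cells against 16.8 CPM in naive controls, close to its primed control mean of 0.595 CPM. LEFTY2 stayed high in both naive groups, at 2220.0 CPM with the knockdown and 1748 CPM in controls. The naive values of KLF17 and GATA3 thus differed within the naive state, while SPRY4, at 0.158 CPM with the ZNF8 knockdown and 0.0928 CPM in controls, was near 0 in both. In ectoderm on day 2, SPRY4 averaged 60.8 CPM with the ZIC2 knockdown and 9.89 CPM in controls, between the primed and naive levels. TET2 averaged 14.7 CPM in ectoderm controls, also between its naive and primed levels of 29 and 1.67 CPM. OTX2, higher in naive than in primed controls, was highest in ectoderm controls, at 546 CPM.

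**Figure D5:**
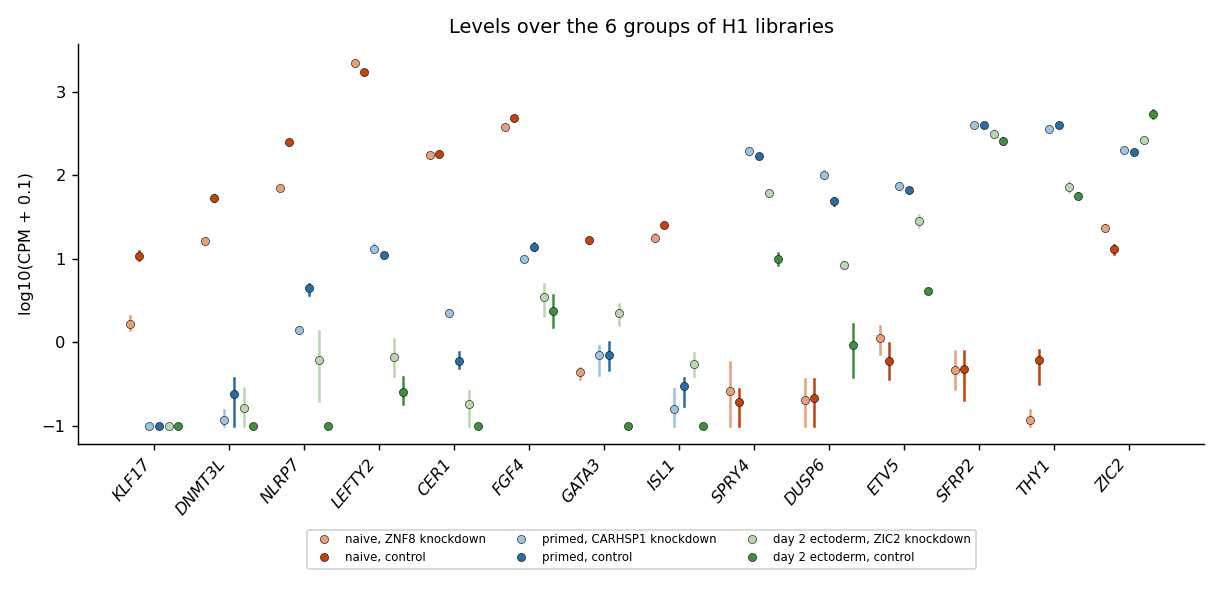
For 14 genes, the mean over 3 libraries of each H1 group is a point and the lowest to highest library a line, in log10(CPM + 0.1) on the vertical axis. Within each gene the groups run from the ZNF8 knockdown and naive controls through the CARHSP1 knockdown and primed controls to the ZIC2 knockdown and ectoderm controls. CER1, LEFTY2 and FGF4 are high in both naive groups, and SPRY4, DUSP6 and ETV5 are high in both primed groups.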

How the data were processed

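Polyadenylated RNA of 3 naive and 3 primed H1 nontargeting control libraries was compared, with 3 naive and 3 primed H9 libraries as a second line. The authors deposited raw counts of reads per gene. HISAT2 and GRCh38 are named in the submitters' processing notes, and no label or header names the counting tool, annotation or strand setting. Another 27 columns of counts match no described sample and were not used. The members and gene lists were chosen with earlier results of these data known.

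Genes were kept by edgeR's filterByExpr (minimum count 10), scaled by TMM and tested with edgeR 4.0.16 (quasi-likelihood F test, R 4.3.3), and p-values were adjusted by Benjamini-Hochberg over all genes tested. The H1 and H9 changes were compared by an interaction contrast in 1 fit of the 12 libraries. H1 and H9 counts came as separate tables, and levels set across them were scaled within each line. Fits were also run on simulated data with far fewer changed genes than passed here. Those runs cannot show how the fits act when so many genes change. Alternatives used DESeq2 1.42.0, other scalings and filters, each library left out, and the replicate number as a block. Genes were named by size of change, list membership, line difference or level, apart from those said to be chosen after their values were seen. Folds against a group at 0 are lower bounds that set that group's total to 3 counts, and intervals for groups with 1 to 3 counts are exact at 95%, for counting error only. Replicates were not paired in the main fits. Not every pair of same-numbered libraries deviated together in either line, but with 3 libraries per group this cannot decide whether they are paired. Sequences are RefSeq promoters of GRCh38.p14, gene positions are from GENCODE 29, and figures used matplotlib 3.10.9. A few genes that the naming rule picks are not reported here.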

Additional observations from a re-analysis of the deposited data

Results flagged for a closer look

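The naive-primed change differed between H1 controls and H9 for 8551 of 17140 genes by a test of the difference itself (edgeR's interaction contrast, adjusted p under 0.05). Genes of the text that moved at least 2-fold in opposite directions in the lines are given here as H1 change minus H9 change on the log2 scale. Higher in naive H1 and lower in naive H9 were BMP2 (4.88), DOK6 (7.76), FGFR3 (4.41), GREB1L (10.6), LHX5 (4.57) and TET2 (5.42). Lower in naive H1 and higher in naive H9 were CCNA1 (−3.88), DUSP5 (−4.5), EDNRB (−12.52), ERVH48-1 (−5.32), ID3 (−5.01), LIF (−2.64), LINC-ROR (−7.28), NDN (−6.38) and VCAN (−2.12). EDNRB had no counts in primed H9, so its fitted difference is no bound. Line, construct and doxycycline cannot be told apart, because the H9 labels name neither a construct nor a treatment.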

How the results depend on the processing

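The number of H1 genes that passed was 11289 and lay within 1.5 times of this under every alternative except the test against a 1.5-fold change, which left 5865 genes, 2771 higher and 3094 lower, and 262 of the distinct list members against 415. That test asks for a larger change by its construction. At least 4-fold higher genes were 908, against 1477 without a low-count filter and 539 with at least 50 counts, and at least 4-fold lower genes were 1324, against 734 with at least 50 counts. These filters change how many genes are tested. Leaving out each library gave 10865 to 11221 genes that passed, 949 to 1077 at least 4-fold higher and 1373 to 1515 at least 4-fold lower in H1, 7126 to 7900 that passed in H9 and 7999 to 8468 line differences. The median of chromosome 19 relative to all genes was 0.16 and ranged from 0.14 to 0.18 without a library. DESeq2 called 10915 genes. Total count scaling called 4967 higher and 6324 lower, against 5557 and 5732. NES did not pass in the main fit, so it had no called direction there. With GC and length trends removed and the replicate block, NES passed as higher in naive cells. Its change was then 0.0771 on the log2 scale (edgeR adjusted p = 0.0491), and the cause was not tested. DPPA5 missed the threshold when all 18 H1 libraries were fitted together (adjusted p = 0.0856). Same-numbered H1 libraries correlated at −0.0107, 7e-04 and 0.0134 in their deviations from the group means, and H9 libraries at 0.1485, −0.1221 and −0.1106. With 3 libraries per group, these values cannot show whether same-numbered libraries share more than a number. In H9 the highest correlations were between naive library 3 and primed library 2 (0.1955) and between naive library 2 and primed library 3 (0.1635). With the replicate block 11073 genes passed in H1, 7803 in H9 and 8185 line differences. Depth limits genes with few counts, and 44797 genes missed the filter in H1.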
